A study of Mus musculus with 18 samples.

Results

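Costimulatory and checkpoint genes of macrophages were followed as a set of 10: Cd40, Cd80, Cd86, Icosl, Cd274, Pdcd1lg2, Vsir, Cd200r1, Slamf7 and Havcr2. They were chosen by name for their role, with earlier results of these data known, from the 21734 protein-coding genes of the count table. All 10 were among the 11357 genes that passed the filter on low counts. RNA was sequenced from bone marrow-derived macrophages (BMDMs), marrow cells grown for 8 to 9 days in M-CSF (10 ng/ml), of mice whose age the labels give as 6 to 7 months, on a 129/B6 mix background. The 18 libraries fall into 6 groups of 3. Wild-type (WT) mice carry normal miR-146a, knock-out (KO) mice lack it in all cells, and 3′F mice are homozygous for a non-seed swap that keeps the seed of the microRNA and alters its 3′ part. In every genotype, resting cultures received fresh medium alone, and the others received 1 ng/ml LPS, a bacterial cell wall component, both for 16 h. Each mutant allele came from its own line of targeted V6.5 embryonic stem cells, and each line was backcrossed 3 times to C57BL6/J and bred as a separate colony. The labels count 3 mice per genotype and do not say which cultures came from which mouse.

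T cells need a second signal beside antigen, and macrophages give it through surface ligands. Cd80 and Cd86 bind the activating receptor CD28 and the inhibitory receptor CTLA-4, Icosl binds ICOS, and Cd40 is the receptor through which helper T cells activate the macrophage itself. Cd274 (PD-L1) and Pdcd1lg2 (PD-L2) engage PD-1 and restrain T cells, and Vsir (VISTA) is a further inhibitory B7 family member. Cd200r1, Slamf7 and Havcr2 (TIM-3) are receptors carried by macrophages: Cd200r1 restrains myeloid cells when it binds CD200, Slamf7 is a self-binding receptor of the SLAM family, and Havcr2 is a checkpoint receptor shared by T cells and myeloid cells. miR-146a is induced through NF-kB and limits TLR4 signalling, the pathway LPS triggers.

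The 2 forms of the microRNA are shown because they are what separates 3′F from WT by design. The WT and 3′F strands are the synthetic mimics listed by the study, 20 bases each, and capitals mark the seed (bases 2 to 8). The mature sequence is from RefSeq.
miR-146a-5p: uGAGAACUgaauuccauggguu
WT mimic: uGAGAACUgaauuccauggg
3′F mimic: uGAGAACUgaauaagugucc
The 2 mimics share their first 12 bases and differ at the other 8, so a match to the seed is open to both. A seed match of at least 7 bases lay in an annotated 3′ UTR of 4 of the 10 members, Cd86, Cd274, Slamf7 and Vsir, against 21.7% of 11244 tested genes with an annotated 3′ UTR. Havcr2, Icosl, Cd40, Cd80, Cd200r1 and Pdcd1lg2 held none in their annotated 3′ UTRs. The sites of the 4 members are printed because the genotype comparisons bear on them. They are given 5′ to 3′ on the strand of the gene (GRCm38/mm10), and capitals mark the match. An 8mer pairs with bases 2 to 8 and has an A opposite base 1, a 7mer-A1 pairs with bases 2 to 7 and has that A, and a 7mer-m8 pairs with bases 2 to 8.
Cd86, 8mer, chr16:36604704-36604711, minus strand: caacagcacagAGTTCTCAgtgctggcaaa
Cd86, 7mer-A1, chr16:36605275-36605281, minus strand: aattcaaaaatGTTCTCAgctgattggaa
Cd274, 7mer-A1, chr19:29385739-29385745, plus strand: tgagtctgtgtGTTCTCActttgggcatg
Slamf7, 7mer-A1, chr1:171633775-171633781, minus strand: tgtttctctggGTTCTCAcggttctcaga
Slamf7, 7mer-A1, chr1:171633766-171633772, minus strand: gggttctcacgGTTCTCAgaggctgctgg
Vsir, 7mer-A1, chr10:60369153-60369159, plus strand: tgctcattgctGTTCTCAagatcttggga
Vsir, 7mer-m8, chr10:60369176-60369182, plus strand: ttgggatgctgAGTTCTCcctagagactt
The 2 Slamf7 sites lie 2 bases apart, and a further Slamf7 match, a 7mer-m8, lies in the 3′ UTR of another transcript. A match is a description of letters and was not tested for binding.

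Total counts ran from 4071084 to 19818043 per library, the lowest being resting 3′F replicate 3. Levels are given as CPM, counts scaled to 1000000 by TMM-adjusted library size. Defining macrophage genes were high in every library, led by Lyz2. Lyz2 alone held 26461 to 75160 CPM and the next, Adgre1, at most 4895 CPM, so the sum of these genes mostly follows Lyz2. This sum was higher in KO than in WT without overlap. It was 60663 to 62594 CPM in resting KO against 31905 to 47922 CPM in resting WT, and 71317 to 88027 against 45639 to 60055 CPM with LPS. In 3′F it was 42770 to 62394 CPM at rest and 50587 to 60564 CPM with LPS. Of 8 T cell markers, 6 stayed under 1 CPM, among them Cd3e with no count in any library. Cd4 ran from 0.449 to 11.2 CPM and Cd2 from 0 to 2.69 CPM. The 5 B cell and 5 NK cell markers all stayed under 1 CPM, and 8 dendritic cell markers summed to 1.36 to 6.09 CPM. The 8 neutrophil markers summed to 14.9 to 23.4 CPM in resting WT and 33 to 40.8 CPM with LPS, to 15.7 to 53.3 and 38.7 to 67 CPM in KO, and to 13.7 to 66.5 and 28.4 to 33.5 CPM in 3′F. The highest resting values were in replicate 3 of KO and of 3′F. In this sum, S100a8 ran from 6.7 to 48.3 CPM and S100a9 from 2.41 to 16.9 CPM. The other markers reached at most 0.128 (Ly6g), 1.17 (Elane), 1.2 (Mpo), 2.5 (Ngp), 3.19 (Ltf) and 6.15 CPM (Camp). The part of these marker sums in the differences below was not tested. Resting KO replicate 3 stood apart from its group: 28 interferon-induced genes summed to 19203 CPM there, where the lowest resting KO library held 1375 CPM and the resting WT libraries 494 to 797 CPM. The LPS-treated WT libraries were uneven too, at 12117, 5929 and 25058 CPM, and their Cd40 and Cd274 values below take the same order. With LPS this sum was 17861 to 24153 CPM in KO and 9862 to 13765 CPM in 3′F. In bulk RNA, fewer expressing cells and less RNA per cell cannot be told apart.

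Per kb of exon, Vsir and Cd200r1 were the most abundant members in resting WT BMDMs, at 90.9 ± 5.6 and 71.0 ± 9.92 CPM per kb (SD, n = 3 here and below). Havcr2 (31.6 ± 4.85) and Slamf7 (29.5 ± 3.37) followed with overlapping libraries, then Cd274 at 12.5 ± 2.42. Cd86, Cd40, Cd80 and Icosl lay between 5.45 and 3.47 CPM per kb, and each overlapped its neighbour in this order. Pdcd1lg2 was last in all 6 groups. After LPS, Cd274 had the highest mean in every genotype, at 109 ± 62.2 in WT, 130 ± 26.7 in KO and 102 ± 24.6 CPM per kb in 3′F. In WT its libraries still overlapped those of Vsir, at 65.0 ± 7.76. Havcr2 moved from rank 3 of 10 in resting WT to rank 6 in WT with LPS. In KO it moved from rank 5 at rest, where it overlapped Cd274 and Cd40, to rank 9 with LPS, where it overlapped Cd80.

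**Figure D1:**
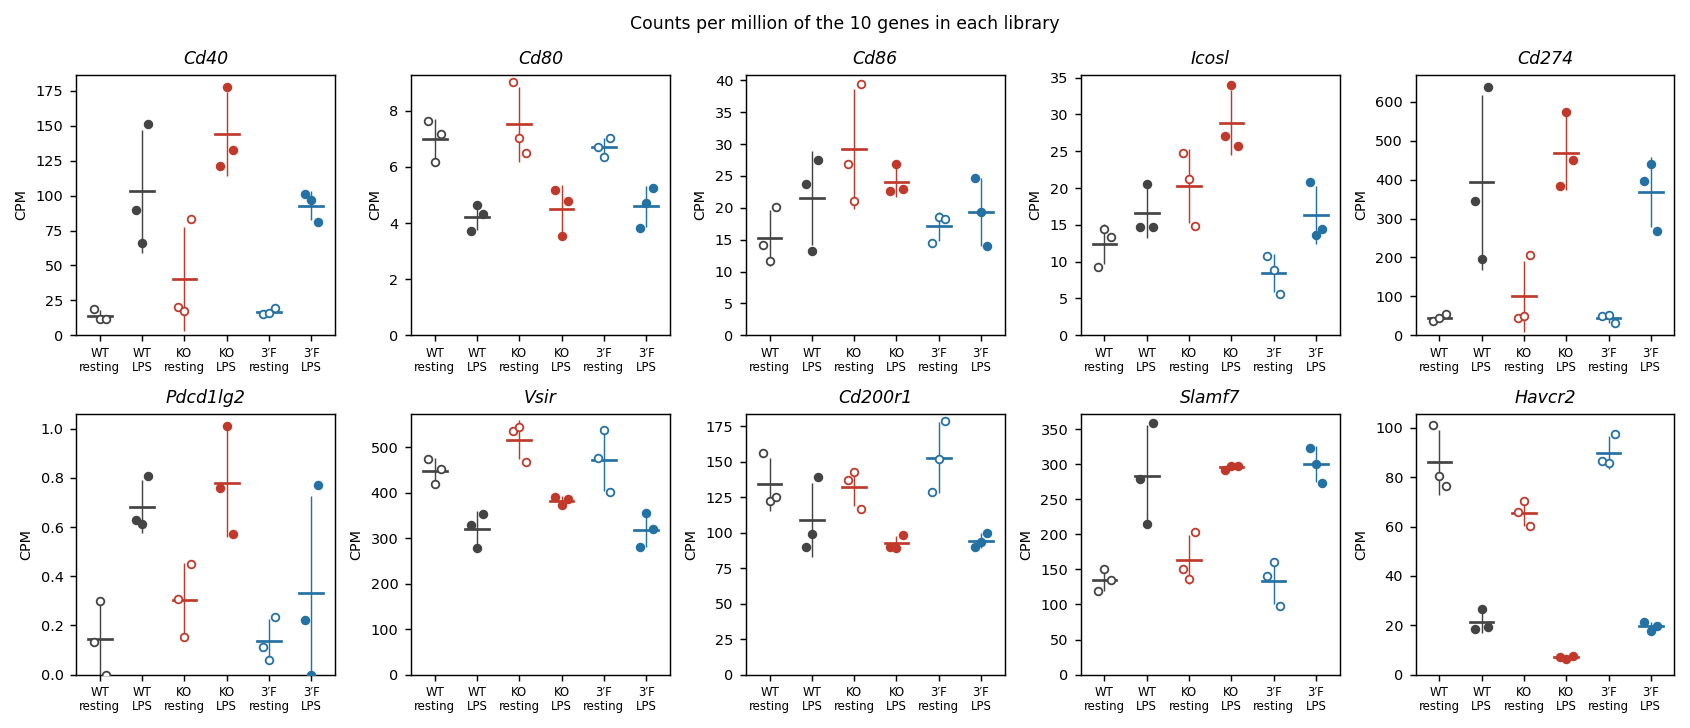
CPM (vertical axis, from 0) of the 10 genes in each of the 18 libraries, by genotype and state; open points are resting and filled points LPS-treated cultures, horizontal bars are means and vertical lines 1 SD over 3 libraries. Cd40 and Cd274 are high in the LPS groups and in 1 resting KO library, and Havcr2 is lowest in the 3 LPS-treated KO libraries, at 6.44 to 7.70 CPM.

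The LPS response asks which of these signals a macrophage raises or lowers after a microbial stimulus. In WT, Cd40, Cd274 and Slamf7 rose and Cd80, Havcr2 and Vsir fell. 3 of 10 members were thus called higher and 3 lower at an adjusted p under 0.05, where 16.3% of all tested genes passed as higher and 12.3% as lower. In KO, 3 members were called higher and 4 lower, where the shares of all genes were 14.3% and 12.6%. In 3′F, 4 were called higher and 4 lower, against 17.2% and 14% of all genes. Cd40, Cd274 and Slamf7 rose in all 3 genotypes, and Cd80, Havcr2 and Vsir fell in all 3.

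Among the costimulatory genes, Cd40 had the largest rise. Its CPM was 19.0, 11.5 and 11.6 in the resting WT libraries and reached 90.0, 66.3 and 151 with LPS. The groups did not overlap, and the log2 fold change was 2.86 ± 0.48 (SE; 7.26-fold, adjusted p = 0.000384, edgeR's quasi-likelihood test as for all adjusted p below). In 3′F, Cd40 was 15.2, 15.9 and 19.4 CPM at rest and 101, 96.8 and 81.3 with LPS, a log2 rise of 2.49 ± 0.48 (adjusted p = 0.00106). In KO it was 20, 17.4 and 83.5 CPM at rest and 121, 178 and 133 with LPS. The highest of these resting values was that of replicate 3, the library with the high interferon-induced sum. The KO rise was 1.85 ± 0.46 on the log2 scale (adjusted p = 0.00632) and was 2.94 (adjusted p = 3.11e-06) without that library.

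Cd80 fell in every genotype, with log2 changes of -0.73 ± 0.18 in WT (adjusted p = 0.00779), -0.75 ± 0.18 in KO (adjusted p = 0.00615) and -0.55 ± 0.19 in 3′F (adjusted p = 0.0374). In WT it went from 7.62, 6.17 and 7.16 CPM to 3.70, 4.64 and 4.32 CPM, so that every LPS library was below every resting one. The 3′F call was lost on leaving out any of 5 of the 6 libraries compared (highest adjusted p = 0.152). Cd86, the other CD28 ligand, was not called: its log2 differences ran from -0.27 in KO to 0.49 in WT, and resting and LPS libraries overlapped in each genotype. Icosl was higher with LPS in every library of each genotype than in the resting ones, but passed the test in 3′F alone, at 0.89 ± 0.26 (adjusted p = 0.0147). Its rise was 0.43 ± 0.25 in WT (adjusted p = 0.208) and 0.50 ± 0.24 in KO (adjusted p = 0.135). Whether the 3′F rise exceeded that of WT was tested directly and not called (adjusted p = 0.975). The 3′F call was lost without resting replicate 3 or without LPS replicate 1 (highest adjusted p = 0.0841).

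Of the checkpoint ligands, Cd274 was the most responsive. It stood at 36.9, 44.1 and 54.3 CPM in WT at rest against 346, 196 and 639 CPM with LPS, an 8.74-fold difference (log2 3.13 ± 0.53, adjusted p = 0.000393). The lowest LPS value was still over 3 times the highest resting one. In 3′F, 48.8, 53.0 and 30.7 CPM became 396, 440 and 268 CPM (log2 3.04 ± 0.53, adjusted p = 0.000456). In KO, 44.4, 50 and 206 CPM became 385, 575 and 450 CPM (log2 2.24 ± 0.51, adjusted p = 0.00361). As for Cd40, the resting KO value that stands out is replicate 3, without which the KO rise was 3.31 (adjusted p = 1.42e-05). Pdcd1lg2, which lies 22.8 kb from Cd274 on chromosome 19, was close to undetected, with 0 to 14 counts in any library. Its counts were 2, 4 and 0 in WT at rest against 9, 9 and 11 with LPS, and none of its LPS responses was called (adjusted p = 0.0673 in WT). Vsir, the most abundant member at rest, fell with log2 changes of -0.48 ± 0.13 in WT (adjusted p = 0.00923), -0.43 ± 0.13 in KO (adjusted p = 0.0186) and -0.57 ± 0.13 in 3′F (adjusted p = 0.00318). In WT this was a change from 474, 419 and 453 CPM to 329, 279 and 354 CPM. Leaving out either of 2 libraries ended the KO call of Vsir (highest adjusted p = 0.0747).

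Among the receptors, Slamf7 rose and Havcr2 fell in all genotypes. Slamf7 was 119, 150 and 135 CPM in WT at rest against 279, 215 and 359 CPM with LPS (log2 1.08 ± 0.20, adjusted p = 0.000736), with rises of 0.85 ± 0.20 in KO (adjusted p = 0.00394) and 1.17 ± 0.20 in 3′F (adjusted p = 0.000372). The 3 LPS-treated KO libraries were nearly equal, at 292, 298 and 297 CPM. Cd200r1 fell with log2 changes of -0.52 ± 0.16 in KO (adjusted p = 0.0218) and -0.70 ± 0.16 in 3′F (adjusted p = 0.00336), while the WT change of -0.30 ± 0.16 was not called (adjusted p = 0.173) and its libraries overlapped. The difference of either mutant response from that of WT was not called either. The KO call of Cd200r1 was lost in 3 of 6 leave-outs (highest adjusted p = 0.0831).

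Havcr2 gave the steepest fall of the set. Its CPM was 101, 80.7 and 76.4 in WT at rest against 18.5, 26.5 and 19.2 with LPS, a 4.02-fold drop (log2 -2.01 ± 0.15, adjusted p = 1.15e-07). In 3′F it was 86.5, 85.6 and 97.6 CPM at rest and 21.4, 17.6 and 19.8 with LPS (log2 -2.20 ± 0.15, adjusted p = 4.19e-08). In KO it was 65.8, 70.3 and 60.2 CPM at rest and 7.23, 6.44 and 7.70 with LPS, a 9.18-fold drop (log2 -3.20 ± 0.16, adjusted p = 2.25e-09). The KO fall was thus the larger, and the difference between the KO and WT responses was -1.19 ± 0.21 on the log2 scale (unadjusted p = 2.81e-05). Over all genes this difference missed the threshold (adjusted p = 0.0799), while DESeq2 (-1.20, adjusted p = 0.000408) and limma-voom with sample weights (-1.22, adjusted p = 0.00732) called it. Leaving out single libraries, edgeR called it in 0 of 12 fits (adjusted p = 0.0561 to 0.344). No member had a called interaction in KO, where 0.00881% of all genes did, or in 3′F, where 0% did. At an unadjusted p under 0.05, Havcr2 was the 1 of 10 members in KO, where 560 of 11357 genes were, and there was no member in 3′F, where 203 genes were.

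**Figure D2:**
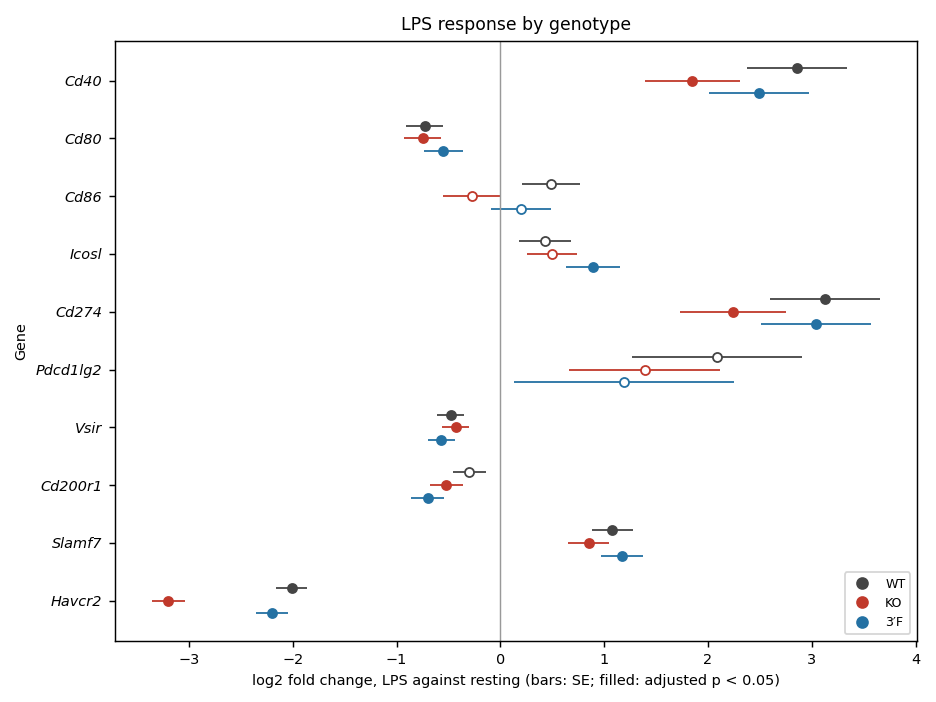
Log2 fold change of LPS against resting cultures (horizontal axis) for each gene in WT, KO and 3′F, with bars of 1 SE from the edgeR fit and filled points for an adjusted p under 0.05. Cd40 and Cd274 lie farthest to the right, and Havcr2 farthest to the left, at -2.01 in WT, -2.20 in 3′F and -3.20 in KO; the Pdcd1lg2 points rest on 0 to 14 counts.

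KO against WT asks what the loss of miR-146a does to these genes in each state. With LPS, Havcr2 was lower in KO and no other member was called. Every LPS-treated KO library (6.44 to 7.70 CPM) was below every WT one (18.5 to 26.5 CPM), a 3.00-fold difference (log2 -1.59 ± 0.15, adjusted p = 2.79e-05). Of all tested genes 1.89% were called higher and 2.9% lower, and 1 of 10 members was called lower. The Havcr2 call held under every alternative tried, with a log2 difference of -1.68 to -1.40 on leaving out single libraries. At rest Havcr2 was also lower in each KO library than in each WT library, a log2 difference of -0.40 ± 0.14 that did not pass the test (adjusted p = 0.0892).

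Icosl stood higher in KO than in WT in both states, without passing the test in either. With LPS it was 27.1, 34.0 and 25.7 CPM in KO and 14.7, 20.5 and 14.7 in WT. The groups did not overlap (log2 0.80 ± 0.24, adjusted p = 0.0675). DESeq2 (adjusted p = 0.0305), limma-voom (adjusted p = 0.00271) and a fit of the 2 groups alone (adjusted p = 0.0277) called it. Leaving out single libraries, edgeR called it in 0 of 6 fits (adjusted p = 0.0956 to 0.311). At rest Icosl was 24.8, 21.2 and 14.8 CPM in KO and 9.26, 14.5 and 13.3 in WT (log2 0.73 ± 0.25, adjusted p = 0.0772). Here the lowest KO library was replicate 3, and without it the difference was 0.90 and was called (adjusted p = 0.0351). This was the 1 call in 6 such fits (highest adjusted p = 0.274). With all libraries, limma-voom called Icosl at rest (log2 0.79, adjusted p = 0.00661), as did DESeq2 (given below).

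At rest no member was called in KO against WT, where 5.12% of all genes were called higher and 4.27% lower. 5 of 10 members had an unadjusted p under 0.05, as did 2671 of the 11357 genes tested. Cd86 was 26.9, 21.1 and 39.5 CPM in KO and 14.1, 11.7 and 20.2 in WT, without overlap (log2 0.93 ± 0.28, adjusted p = 0.0505). Cd40 (log2 1.49 ± 0.47, adjusted p = 0.0567) and Cd274 (log2 1.14 ± 0.50, adjusted p = 0.174) had the largest differences but overlapping libraries. Both rested on replicate 3 of resting KO: without it the differences were 0.41 (adjusted p = 0.485) and 0.07 (adjusted p = 0.944), and that of Cd86 was 0.66 (adjusted p = 0.186). With all libraries, DESeq2 called Cd40 (adjusted p = 0.00736), Cd86 (adjusted p = 0.0173) and Icosl (adjusted p = 0.0445). Without a filter on low counts, edgeR also called Cd40 (log2 1.47, adjusted p = 0.0198). Replicate 3 of resting KO also moves the interferon-induced genes. Of these, 27 of 28 were called higher in resting KO against WT (median log2 4.29), and 17 (median 1.81) without that library. The part of interferon-induced expression in the Cd40 and Cd274 values was not tested.

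**Figure D3:**
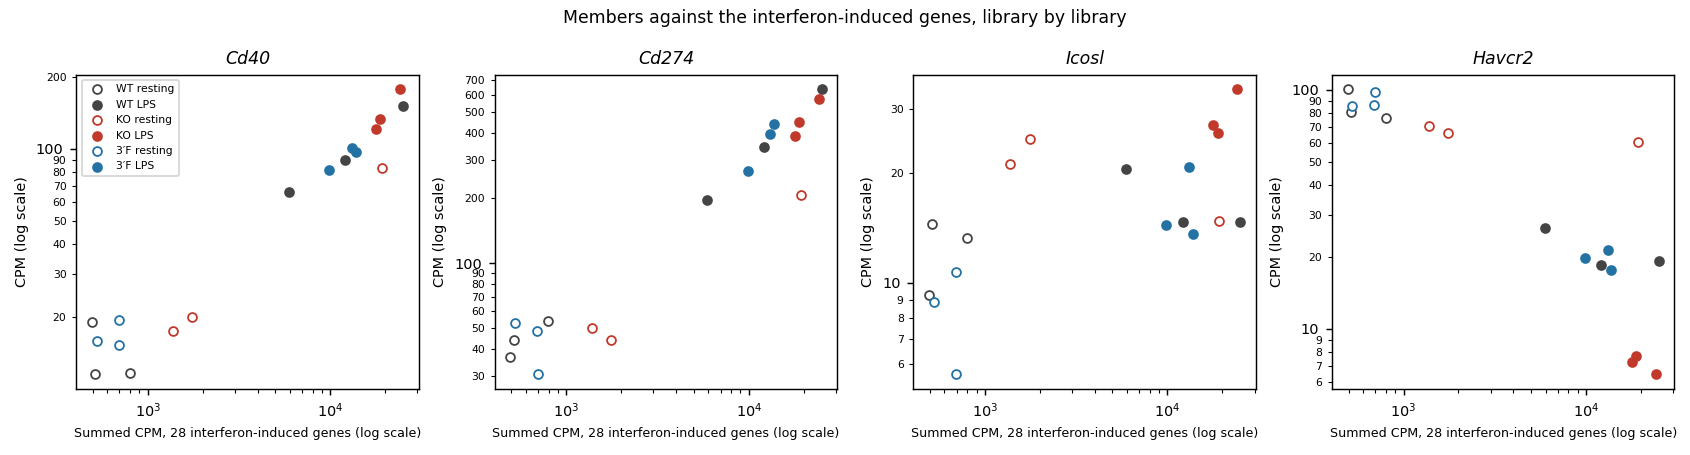
CPM of Cd40, Cd274, Icosl and Havcr2 (vertical axes, log scale) against the summed CPM of 28 interferon-induced genes (horizontal axes, log scale), 1 point per library, open for resting and filled for LPS. Resting KO replicate 3, at 19203 CPM on the horizontal axis, lies among the LPS-treated libraries there and holds 83.5 CPM of Cd40 and 206 CPM of Cd274, while its Havcr2 (60.2 CPM) is near the other resting KO libraries and the LPS-treated KO libraries lie apart at the bottom.

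None of the 4 members with a seed match was called in KO against WT by the main edgeR fit. At rest, limma-voom called Vsir (log2 0.28, adjusted p = 0.0475). Cd86 was called there by DESeq2, as given above, and by edgeR without a filter on low counts (log2 0.92, adjusted p = 0.0266). Leaving out single libraries, edgeR called Cd86 at rest in 2 of 6 fits (adjusted p = 0.0272 to 0.19 over the 6). With LPS, the log2 differences of Cd86, Cd274, Slamf7 and Vsir from WT lay between 0.06 and 0.26. Vsir alone of these 4 had groups without overlap, at 390, 373 and 387 CPM in KO against 329, 279 and 354 in WT (log2 0.26 ± 0.13, adjusted p = 0.307). At rest the 4 differed by 0.20 to 1.14, the largest being that of Cd274 described above. Pdcd1lg2, Cd80, Slamf7 and Cd200r1 overlapped between KO and WT in both states.

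3′F against WT asks whether the altered 3′ part of miR-146a matters when the seed is kept. No member was called at rest, where 0% of all genes were, or with LPS, where 0.00881% of all genes were. No member reached an unadjusted p under 0.05 in either state, where 557 genes did at rest and 106 with LPS. For every member the 3′F and WT libraries overlapped, and the share of all genes with such overlap was not computed. The log2 differences ran from -0.52 to 0.23 at rest and from -1.42 to 0.11 with LPS, and the lowest value in each state was that of Pdcd1lg2 with its few counts. For Havcr2 the LPS-treated 3′F libraries (17.6 to 21.4 CPM) fell inside or just under the WT range (18.5 to 26.5 CPM). The difference there was -0.13 ± 0.15 (adjusted p = 1), and a missed threshold does not show equal levels.

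**Figure D4:**
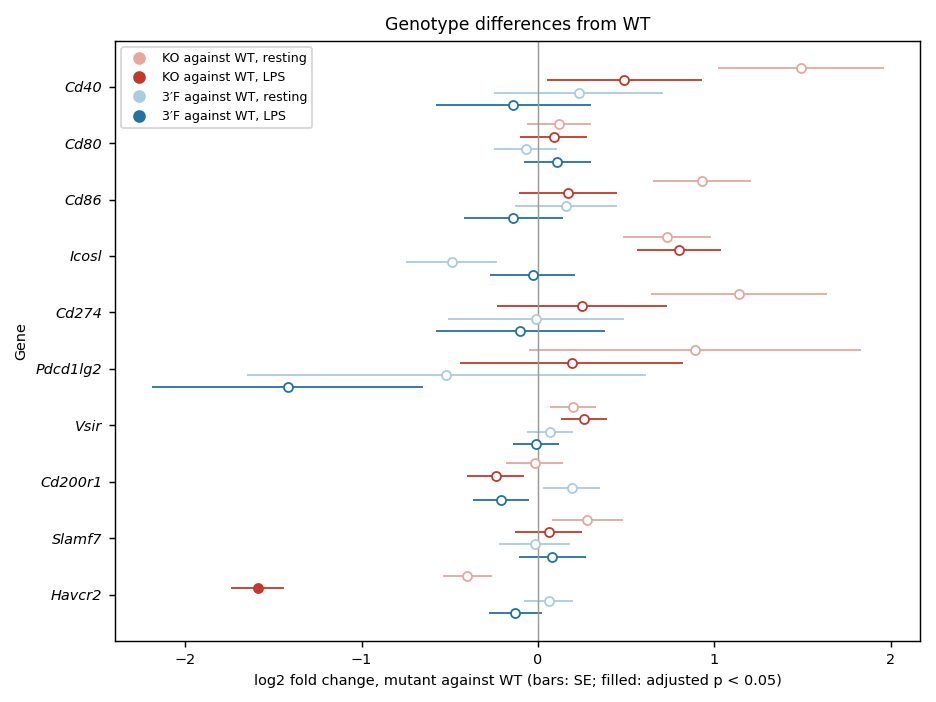
Log2 fold change of KO or 3′F against WT (horizontal axis) for each gene at rest (pale) and with LPS (dark), with bars of 1 SE from the edgeR fit and a filled point for an adjusted p under 0.05. The 1 filled point is Havcr2 in KO with LPS, at -1.59, and the resting KO points of Cd40, Cd86, Icosl and Cd274 lie to the right of 0 unfilled.

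KO against 3′F sets the null allele beside the swapped one. It shares the KO libraries with the comparison above, so the 2 are not independent. With LPS, 1 member was called lower, Havcr2 (log2 -1.46 ± 0.15, 2.74-fold, adjusted p = 6.97e-05), and none higher, where 1.51% of all genes were called higher and 2.37% lower. Every KO library lay under every 3′F library. Icosl was 20.8, 13.6 and 14.4 CPM in LPS-treated 3′F, below all 3 KO values, and was not called (log2 0.83 ± 0.24, adjusted p = 0.0698). DESeq2 (adjusted p = 0.0266), limma-voom (adjusted p = 0.00468) and a fit of the 2 groups alone (adjusted p = 0.0123) called Icosl here. With single libraries left out, edgeR called it in 0 of 6 fits (adjusted p = 0.0695 to 0.313). At rest 1 member was called higher and 1 lower, where the shares of all genes were 6.79% and 6.1%. Icosl was higher in KO, against 10.7, 8.87 and 5.62 CPM in 3′F (log2 1.22 ± 0.25, 2.32-fold, adjusted p = 0.00875), and stayed called on leaving out any library. Havcr2 was lower (log2 -0.45 ± 0.14, adjusted p = 0.0426), but this call was lost on leaving out any 1 of the 6 libraries (adjusted p = 0.0521 to 0.139).

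Havcr2 lies on chromosome 11, as does the miR-146a hairpin. The gene is at chr11:46454935-46481255 on the plus strand (GRCm38/mm10), 3.08 Mb from the hairpin at chr11:43374397-43374461. Of 14 tested genes between them, 1 passed the test in KO against WT at rest, Ublcp1, which was lower (log2 -0.91, adjusted p = 0.00728). With LPS 1 passed, Rnf145, which was higher (log2 0.45, adjusted p = 0.0281). Of all tested genes, 5.12% were called higher and 4.27% lower at rest, and 1.89% and 2.9% with LPS. None of the 14 was called in 3′F against WT with LPS, where 0.00881% of all genes were. The next tested gene past Havcr2 was Timd4, 3.44 Mb from the hairpin and described further below. It was called higher in KO than in WT at rest (log2 5.64, adjusted p = 0.0151) and with LPS (log2 4.87, adjusted p = 0.00382). Its resting level was low, at most 0.0967 CPM in WT and 0.535 to 4.04 CPM in KO. On the mixed 129/B6 background, loss of the microRNA and sequence linked to the targeted allele cannot be told apart for genes at these distances. The other members lie on chromosomes 1 (Slamf7), 2 (Cd40), 10 (Icosl and Vsir), 16 (Cd80, Cd86 and Cd200r1) and 19 (Cd274 and Pdcd1lg2).

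Promoter windows of RefSeq, 250 bases before to 50 after the start site, were held for 7 of the 10 members. They were searched on both strands for the NF-kB consensus, by name, for the ISRE core, by name, and for the letters TGANTCA (AP-1) and TTCNNNGAA (GAS). AP-1 letters were in Cd80, Slamf7 and Havcr2 and in 7.81% of 32851 promoters. NF-kB letters were in Icosl and Pdcd1lg2 and in 8.46%. None of the 7 held the GAS (8.3% of promoters) or ISRE core letters (3.44%). The windows of the members called between genotypes, Havcr2 and Icosl, are shown on the strand of the gene with the match in capitals (GRCm38/mm10).
Havcr2, AP-1, chr11:46454720-46454749, plus strand: ttcctttttgtTGATTCAtgtaataaacct
Icosl, NF-kB, chr10:78069247-78069276, plus strand: gagcggaggcGGAGCTCCCCgcctccaacc
Counted from the start site, the Havcr2 match begins at -200 and the Icosl match, which reads as the consensus on the opposite strand, at -111. These letters say nothing of whether a factor was bound.

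Other genes of the same families were read from a list of 34, of which 25 were tested. With LPS, 11 were called higher and 2 lower in WT (16.3% and 12.3% of all genes), 11 and 4 in KO (14.3% and 12.6%), and 13 and 3 in 3′F (17.2% and 14%). In WT the largest rises were those of Tnfsf4 (OX40 ligand; log2 4.15 ± 0.88), Slamf8 (3.36 ± 0.40) and Tnfsf15 (TL1A; 3.01 ± 0.34), and the falls were Cd200r4 (-0.81 ± 0.21) and Cd84 (-0.49 ± 0.13). Lgals9, which encodes galectin-9, a ligand of TIM-3, measured 18.1, 43.2 and 34.3 CPM in the resting WT libraries, and the LPS-treated ones held 174, 116 and 208 CPM. The ligand was thus higher in the LPS-treated WT libraries, where its receptor gene Havcr2 was lower. In 3′F the Lgals9 rise was 2.90 ± 0.57 (adjusted p = 0.00124). In KO the resting Lgals9 values were 49.0, 37.9 and 278 CPM, the last again in replicate 3, and its call as higher in resting KO against WT (log2 1.93 ± 0.55, adjusted p = 0.0372) was lost without that library (0.45, adjusted p = 0.408).

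In LPS-treated KO against WT, 3 of the 25 were higher and 1 lower, where 1.89% and 2.9% of all genes were. Timd4 (TIM-4), a phosphatidylserine receptor of the same family as Havcr2 located 3.44 Mb from the hairpin, was 9.92, 7.53 and 5.99 CPM in KO and 0.419, 0.273 and 0.0733 in WT (adjusted p = 0.00382). Havcr2 and its family neighbour thus differed in opposite directions, and the limit on linked sequence given above holds for both. Slamf6 was 14.9, 15.9 and 14.0 CPM in KO against 6.91, 4.16 and 8.14 in WT (log2 1.22 ± 0.21, adjusted p = 0.00382), and Icam1, an adhesion ligand, was higher by 0.58 ± 0.15 (adjusted p = 0.0369). Cd276 (B7-H3) was lower, at 0.344, 1.30 and 0.357 CPM against 4.05, 3.62 and 3.59 (log2 -2.48 ± 0.54, adjusted p = 0.0147). Timd4, Slamf6 and Cd276 were also called against LPS-treated 3′F, in the same directions. At rest 7 of the 25 were higher in KO than in WT and none lower, where 5.12% and 4.27% of all genes were, and 5 were higher without replicate 3. In 3′F against WT none of the 25 was called in either state.

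Receptors that lymphocytes use for these ligands were near 0, with 1 exception. Of 8 listed, Ctla4, Icos, Pdcd1, Cd40lg, Cd226, Tigit and Cd96 had at most 5 counts in any library. Cd28, the receptor of Cd80 and Cd86, passed the filter, at 43.7, 56 and 40.9 CPM in WT at rest against 3.07, 3.48 and 1.54 CPM with LPS. Cd28 fell with LPS in each genotype, with log2 changes of -4.11 ± 0.38 in WT (adjusted p = 1.2e-06), -5.25 ± 0.44 in KO (adjusted p = 3.57e-07) and -3.86 ± 0.39 in 3′F (adjusted p = 2.26e-06). With LPS it was lower in KO, at 0.207, 0.796 and 1.36 CPM, than in WT (log2 -1.78 ± 0.49, adjusted p = 0.0498), while the difference from LPS-treated 3′F was not called (log2 -1.64 ± 0.51, adjusted p = 0.087). Of the T cell markers, Cd3e had no count in any library, while Cd4 reached 11.2 CPM and Cd2 2.69 CPM.

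The genes whose pattern over the 18 libraries was most like a member's were named by the root mean square difference of centred log2 CPM, with no test. For Havcr2 these were Emp1 (0.23) and Arhgap22 (0.27), for Cd40 Tor3a (0.23) and Parp9 (0.25), and for Cd274 F10 (0.28) and Slc28a2 (0.28). For Icosl they were Pik3cg (0.24) and Rarg (0.27), and for Slamf7 Cyfip1 (0.14) and Coa5 (0.16). Cd80 was nearest Tpra1 (0.17) and 4930522L14Rik (0.17), Cd86 nearest Neurl3 (0.25) and Gnb4 (0.25), Cd200r1 nearest Pcmtd1 (0.12) and Tdp2 (0.14), and Vsir nearest Ip6k1 (0.12) and Herc1 (0.12). The nearest to Pdcd1lg2, Aox1 (0.57) and Magohb (0.60), were farther off. The spread of the members themselves on this scale ran from an SD of 0.30 for Vsir to 1.61 for Cd274.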

How the data were processed

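Unnormalized read counts per gene were deposited by the authors for 21734 protein-coding genes in 18 libraries with an exon length per gene. Libraries were directional and made from rRNA-depleted total RNA. Per the submitters' processing notes the tools were cutadapt 1.8.3, HISAT2 2.1.0 and featureCounts 1.5.3, with build mm10. Of the gene IDs, 21679 were found in GENCODE M21 and 55 were not. The members and lists were chosen with earlier results of these data known. miR-146a itself is not analysed here, so the genotypes could not be checked on it.

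In R 4.3.3, genes were kept by filterByExpr of edgeR 4.0.16 (11357 genes), scaled by TMM (factors 0.812 to 1.15) and entered 1 quasi-likelihood fit over all 6 groups with no covariate. The 11 comparisons were 3 LPS responses, 6 genotype pairs within a state and 2 interactions. Tests were two-sided, with Benjamini-Hochberg adjustment over all genes tested and calls at an adjusted p under 0.05. P-values measure the spread between cultures of 3 mice a genotype, and an exact permutation of 3 against 3 could not go below 0.1. Counts were also simulated for KO against WT with LPS (11191 genes). Every gene was given the same spread, and only genes with a mean above 1 CPM were changed. The procedure recovered 85% of genes changed by 1 on the log2 scale and 100% of those changed by 2. These rates do not carry over to members with a wider spread, such as Cd40 (SE 0.44) and Cd274 (SE 0.48) in this comparison. Named genes were all 10 members, of the related list up to 3 called genes with the largest change in each direction and comparison, and the 2 genes nearest each member. Ublcp1 and Rnf145 were named after their values were seen. Alternatives were DESeq2 1.42.0, limma-voom (limma 3.58.1) with sample weights, RLE scaling, no filter, only the groups compared, a threshold of 0.01, replicate and animal blocks, and each library left out. Counting sets the precision: at 3 counts or fewer, as for Pdcd1lg2 in most resting libraries, a level is at the floor.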

Additional observations from a re-analysis of the deposited data

How the results depend on the processing

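Of 25 calls of members, 18 were kept under every alternative, among them those of Havcr2 in all 3 LPS responses and in LPS-treated KO against WT and 3′F. Counts of members are given beside the number of all genes called under the same setting. In resting KO against WT, 0 members (1067 genes) became 3 with DESeq2 (1482 genes) and 2 with limma-voom (2259 genes), and also 2 without a filter, where the genes fell to 985. In LPS-treated KO against WT, 1 member (544 genes) became 2 with DESeq2 (983), limma-voom (1777) or the compared groups alone (1031). In resting KO against 3′F, 2 members (1464 genes) became 4 with DESeq2 (2094), 1 at a threshold of 0.01 (327) and 0 with the compared groups alone, where 16 genes were called and 9 members passed the filter. In LPS-treated KO against 3′F, 1 member (441 genes) became 2 with DESeq2 (801), 4 with limma-voom (1842) and 3 with the compared groups alone (1661). In the KO interaction, 0 members (1 gene) became 1 with DESeq2 (15) or limma-voom (57). Leaving out single libraries gave 0 to 2 calls in resting KO against WT and 1 to 3 in resting KO against 3′F. Cd274 in resting KO against 3′F reversed to -0.05 with limma-voom (adjusted p = 0.915). With the compared groups alone, Cd40 in the KO response lost its call (1.81, adjusted p = 0.0735), as did Icosl in resting KO against 3′F (1.23, adjusted p = 0.135). The cause was not tested.

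Replicate numbers were not shown to pair the samples, since not every correlation was over 0.1. Deviations of same-numbered cultures correlated at -0.29 to 0.21 across genotypes and at 0.03 to 0.32 between states of a genotype. Between states, 5 of 9 were over 0.1 and 8 of 9 correlated best with their own number. The deposited column names also share a letter between same-numbered resting and LPS cultures of a genotype. They do not say that it stands for a mouse. Both are hints of a pairing between states, which the main fit did not use. With a replicate block, resting KO against 3′F had 1 call (1279 genes), since Havcr2 was at -0.46 (adjusted p = 0.0599). With a block for same-numbered cultures of a genotype, Icosl was called in the KO response (0.53, adjusted p = 0.0436). No member was called in either interaction with that block. Using the longest 3′ UTR alone left 4 members with a seed match. By group means, 2 of the 20 nearest genes were named again, F10 and Cyfip1.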
